A study of Mus musculus with 16 samples.

Results

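The mesothelial marker genes, which mark the flat cell layer that covers the organs and fat pads of the body cavities, were compared across brown and white adipose tissue of male mice with and without the glucocorticoid receptor in fat. The 10 members are Upk3b, Wt1, Upk1b, Msln, Lrrn4, Nkain4, Crb2, Krt8, Krt18 and Krt19, and they were taken by name, with every array probe whose transcript accession maps to one of them. They had 12 probes, 1 each for 8 genes and 2 each for Krt8 and Nkain4, and all 10 were among the 15469 genes tested, out of 19096 gene symbols on the array. RNA was measured on 16 one-colour Agilent arrays in 4 groups of 4: brown fat of adipose-specific GR knockout mice, brown fat of control mice, white fat of the knockouts and white fat of the controls. The knockout targets the glucocorticoid receptor, encoded by Nr3c1, in adipose tissue. The control mice are described as wild type, and the promoter that drove the deletion, the age of the mice and the white fat depot are not given in the sources used here.

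Mesothelial cells are epithelial in form but arise from mesoderm, and they carry a mixed set of proteins: keratins inside the cell, mesothelin and uroplakins at the surface, and the transcription factor Wt1 in the nucleus. Visceral white fat pads lie in the abdominal cavity and are covered by this layer. Interscapular brown fat lies outside that cavity, under the skin and beside muscle. Simple keratins are shared with glandular and ductal epithelia, so Krt8, Krt18 and Krt19 are less specific to mesothelium than the other 7 genes.

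Values are given as the log2 intensity of a probe minus the 75th percentile of its array, so that 0 is that percentile and a step of 1 is 2-fold. Within each group some arrays differed from each other by less than the error that the scanner software assigns to its own spots, and these were averaged and counted as 1 sample. That left 9 distinct samples: brown knockout array 1 and arrays 2, 3 and 4, brown control array 1, arrays 2 and 3, and array 4, white knockout array 1 and arrays 2, 3 and 4, and white control arrays 1 and 4 and arrays 2 and 3. The labels do not say which arrays came from separate mice beyond calling the 4 of a group biological replicates, so p-values measure the spread between these samples, which may in part be technical. On each array 67.3% to 77.0% of the 43379 spots were well above background and none was saturated. Nr3c1 read 1.504, 1.59, 1.76 and 1.73 on brown knockout arrays 1 to 4, against 2.46, 2.63, 2.60 and 2.29 on brown control arrays. In white fat Nr3c1 read 1.503, 1.24, 1.23 and 1.34 in knockouts, against 2.43, 2.01, 2.27 and 2.42 in controls, and in each tissue the knockout arrays were all lower than the controls on this probe, the brightest of 4. The other 3 probes also separated the genotypes, except that on 1 the white arrays overlapped (knockout minus control -0.24 in white and -0.64 in brown fat). On the brightest probe this difference was -0.85 ± 0.21 (SE) in brown and -0.90 ± 0.23 in white fat, with adjusted p of 0.619 and 0.415 (limma, Benjamini-Hochberg over 15469 genes). Nr3c1 signal thus remained on this probe, at 0.52 and 0.59 of the control mean in the brown knockout samples and 0.58 and 0.50 in the white ones. Whether this probe lies in the deleted part of the gene is not given in the sources used here.

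Adipoq, which encodes the adipocyte hormone adiponectin, lay between 6.62 and 8.23 in all 9 samples. Some samples went against the markers of their label. Ucp1, the uncoupling protein that defines brown adipocytes, was at 5.63 and 5.80 in the brown knockout samples and at 6.54, -0.83 and 8.07 in the brown control samples, the low value being that of arrays 2 and 3. The white samples had Ucp1 between -2.52 and -0.99. Skeletal muscle markers were high in all 5 brown samples, with summed scaled signals of 874 and 1356 in knockouts and 1533 to 2115 in controls, against 2.30 to 8.16 in white fat. Acta1, the skeletal muscle actin, lay between 7.64 and 8.93 in brown fat. The white knockout sample on arrays 2, 3 and 4 had lymphocyte markers far above the other white samples. These values are given beside the results they touch.

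The promoters of 4 members are shown because these pairs differed in their pattern across the samples: Upk3b and Lrrn4 stand for the 7 genes that were low in brown fat, and Krt8 and Krt18 for the keratins that were not. Each line is the 250 bases before the RefSeq transcription start in build GRCm38.p6, 5′ to 3′ on the gene's strand, from chr5:136038246-136038495 (plus strand) for Upk3b, chr2:132880863-132881112 (minus strand) for Lrrn4, chr15:102004343-102004592 (minus strand) for Krt8 and chr15:102027966-102028215 (plus strand) for Krt18. The Lrrn4 window lies within the gene's span, so it precedes an internal start and not the outermost one. Capitals mark GGAATG, or its reverse complement, the core letters of sites for TEAD transcription factors.
Upk3b: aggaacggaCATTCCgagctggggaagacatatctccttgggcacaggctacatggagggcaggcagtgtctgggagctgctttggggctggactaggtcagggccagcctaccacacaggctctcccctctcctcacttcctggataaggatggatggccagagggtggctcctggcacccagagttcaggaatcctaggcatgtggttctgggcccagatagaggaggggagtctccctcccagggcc
Lrrn4: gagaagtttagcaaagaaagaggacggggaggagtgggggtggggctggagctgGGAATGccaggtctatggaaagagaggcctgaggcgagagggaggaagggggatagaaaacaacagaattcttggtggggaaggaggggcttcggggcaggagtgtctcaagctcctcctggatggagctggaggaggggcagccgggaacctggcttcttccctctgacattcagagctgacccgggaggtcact
Krt8: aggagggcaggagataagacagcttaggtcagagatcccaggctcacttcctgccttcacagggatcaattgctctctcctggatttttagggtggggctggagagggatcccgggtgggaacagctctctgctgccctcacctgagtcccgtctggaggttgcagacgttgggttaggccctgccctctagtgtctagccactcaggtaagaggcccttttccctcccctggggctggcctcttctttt
Krt18: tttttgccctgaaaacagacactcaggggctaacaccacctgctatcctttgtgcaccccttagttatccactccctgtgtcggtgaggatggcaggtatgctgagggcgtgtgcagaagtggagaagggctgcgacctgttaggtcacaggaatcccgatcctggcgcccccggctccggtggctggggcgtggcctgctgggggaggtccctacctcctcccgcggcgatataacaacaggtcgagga
GGAATG occurred 196 bases before the start of Lrrn4 and, on the other strand, 241 bases before that of Upk3b, and it was in 12.6% of all 32851 windows of this length. Windows of 5 members could be matched, Crb2 being the fifth, and the other 3 of them did not hold these letters. A further 4 motifs were searched on both strands: the box TATAAA of core promoters, the half-site AGAACA of the glucocorticoid receptor, the site GCGTGGGNG of Wt1 and Egr1, and the site TGANTCA of AP-1. They occurred in 12.4%, 16.1%, 1.65% and 6.75% of all windows and in 0 of the 5, so no matches overlapped here. GC content was 60.8% for Upk3b, 59.2% for Lrrn4, 58% for Krt8 and 60.4% for Krt18, against a median of 52.4% over all windows. These matches describe letters in short windows, not binding.

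**Figure D1:**
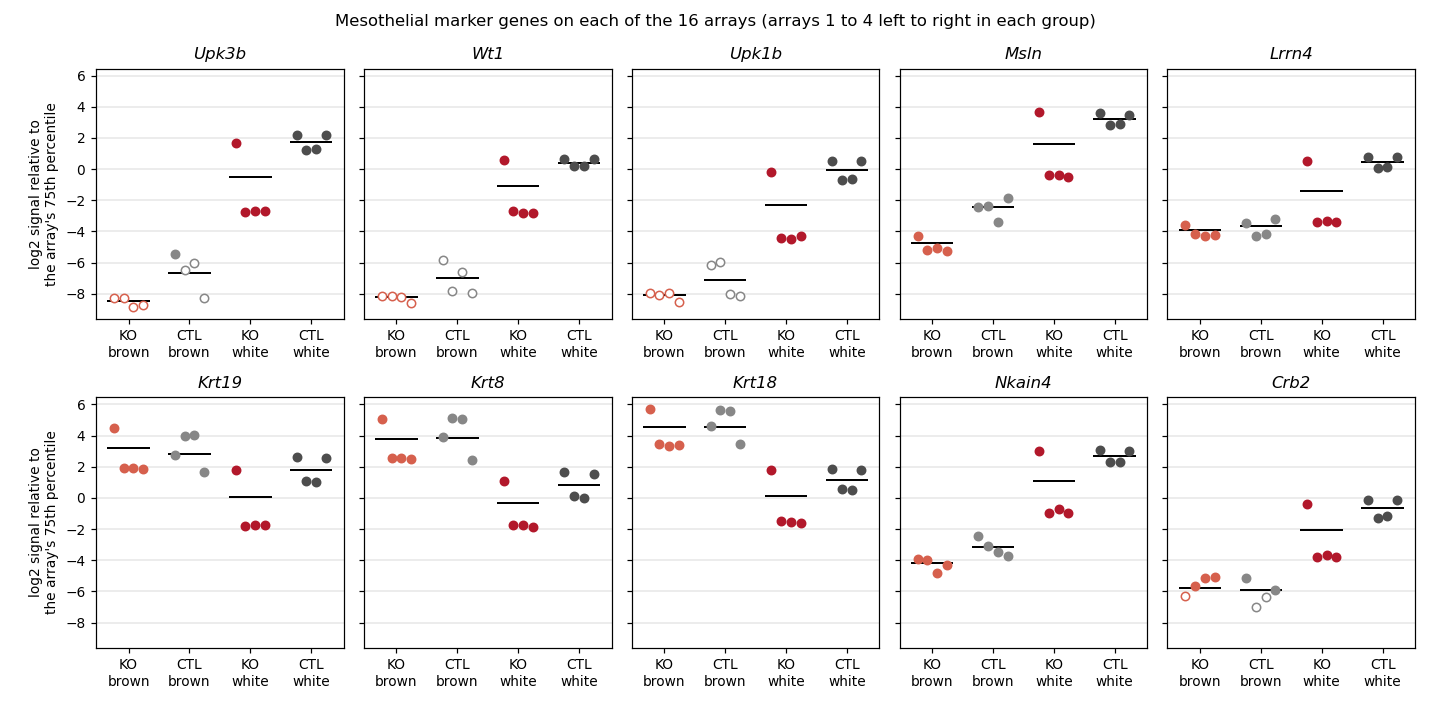
Log2 signal of each member, relative to the array's 75th percentile, on the 16 arrays, with arrays 1 to 4 from left to right in each group (KO, knockout; CTL, control). Filled points were well above background and open points were not; lines are means over distinct samples. Upk3b, Wt1, Upk1b, Msln, Lrrn4, Nkain4 and Crb2 were lower on every brown array than on every white array of the same genotype, Krt8 and Krt18 were higher, and white knockout array 1 lay near the controls while arrays 2, 3 and 4 lay below them.

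In control mice 7 of the 10 had lower means in brown than in white fat and 3, the keratins, had higher means. Of the 10, 6 passed the test as lower (Upk3b, Wt1, Upk1b, Nkain4, Msln and Crb2) and 0 as higher, where 1.12% of the 15469 genes were called lower and 3.92% higher at an adjusted p of 0.05. The median difference of the 10 was -5.42, against -0.085 over all genes. Wt1, Upk1b, Upk3b and Crb2 passed the filter for signal above background only through white fat, where they are high. Their tests between the tissues are therefore not independent of that filter. With no filter on dim probes 6 members were again called lower, beside 128 of 19096 genes. In bulk tissue, fewer cells of a type and less RNA per cell cannot be told apart. No slide held both tissues of the same genotype. White control arrays lay on slides 1 and 2 and brown control arrays on slides 3 and 4. White knockout arrays lay on slides 2 and 3 and brown knockout arrays on slides 4 and 5. Within a genotype, differences between tissues and between slides therefore cannot be told apart.

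The uroplakins are membrane proteins best known from the plaques of the bladder lining, where uroplakin 1b pairs with a member of the uroplakin 3 family. Upk3b read -8.25, -8.27, -8.88 and -8.76 on brown knockout arrays 1 to 4, against -5.43, -6.46, -6.01 and -8.31 on brown control arrays. In white fat it read 1.67, -2.77, -2.72 and -2.67 in knockouts, against 2.18, 1.19, 1.28 and 2.21 in controls. Only 1 of the 8 brown arrays, control array 1, had Upk3b well above background, while all 8 white arrays did. Upk3b averaged -6.66 ± 1.48 (SD, n = 3) in brown control fat and 1.71 ± 0.68 (SD, n = 2) in white control fat, with an adjusted p of 0.0166 (limma). The fitted difference of -8.37 ± 1.32 (SE) is not a measured size, since 2 of the 3 brown control samples were not well above background. Upk1b read -7.93, -8.10, -7.97 and -8.52 in brown knockouts, against -6.19, -5.94, -7.99 and -8.17 in brown controls, and none of these arrays was well above background. In white fat Upk1b read -0.21, -4.43, -4.47 and -4.28 in knockouts, against 0.53, -0.69, -0.64 and 0.53 in controls. On this scale it was therefore at least 60.2-fold lower in brown than in white control fat (adjusted p 0.0206, limma), with no overlap between the tissues.

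Wt1 is the zinc finger transcription factor that marks mesothelium and progenitors in visceral white fat. It read -8.16, -8.17, -8.18 and -8.61 in brown knockouts, against -5.86, -7.81, -6.64 and -7.98 in brown controls, with no brown array well above background. In white fat it read 0.56, -2.68, -2.80 and -2.85 in knockouts, against 0.62, 0.19, 0.18 and 0.66 in controls. Among the members Wt1 had the smallest adjusted p between the tissues, 0.00853 in controls, where it was at least 83.3-fold lower in brown fat on this scale. It was also the only member that passed the same test in knockouts without pairing, at least 35.1-fold lower in brown fat (adjusted p 0.0259, limma).

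Msln encodes mesothelin, a lipid-anchored glycoprotein of the mesothelial surface. It read -4.31, -5.22, -5.08 and -5.25 in brown knockouts, against -2.45, -2.38, -3.42 and -1.89 in brown controls, above background on all 8 arrays. In white fat it read 3.63, -0.39, -0.36 and -0.51 in knockouts, against 3.57, 2.83, 2.91 and 3.49 in controls. Msln differed by -5.61 ± 1.06 (SE), or 49.0-fold, between brown and white control fat (adjusted p 0.0313, limma). In brown fat the Msln values of the knockout arrays were all lower than those of the control arrays.

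Nkain4 encodes a membrane protein that interacts with the sodium pump, and Crb2 a Crumbs protein of the apical polarity complex. Nkain4 read -3.93, -3.99, -4.79 and -4.31 in brown knockouts, against -2.42, -3.11, -3.46 and -3.70 in brown controls. In white fat Nkain4 read 3.03, -0.95, -0.69 and -0.94 in knockouts, against 3.08, 2.33, 2.32 and 3.005 in controls, a brown minus white difference of -5.82 ± 1.03 (SE) in controls (adjusted p 0.0251, limma). The second Nkain4 probe had a smaller difference in the same direction, -3.60 between the control tissues (adjusted p 0.0205 with every probe tested on its own). Crb2 read -6.27, -5.64, -5.13 and -5.07 in brown knockouts, against -5.11, -6.99, -6.34 and -5.91 in brown controls, and was above background on 3 and 2 of these 4 arrays each. In white fat Crb2 read -0.37, -3.82, -3.65 and -3.77 in knockouts, against -0.13, -1.27, -1.16 and -0.12 in controls, a difference of -5.23 ± 0.98 (SE) between brown and white control fat (adjusted p 0.0306, limma). That is not a fully measured size, since Crb2 was above background on only some of the brown arrays. For both genes the arrays of the tissues did not overlap.

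Lrrn4 encodes a membrane protein with leucine-rich repeats. It read -3.61, -4.18, -4.28 and -4.25 in brown knockouts, against -3.45, -4.29, -4.16 and -3.21 in brown controls. In white fat it read 0.49, -3.43, -3.31 and -3.38 in knockouts, against 0.79, 0.04, 0.14 and 0.80 in controls. The brown arrays lay below the white arrays of the same genotype, with knockouts apart by as little as -3.61 on brown array 1 against -3.43 on white array 2. The control difference of -4.07 ± 1.01 (SE) had an adjusted p of 0.0723 (limma). Non-overlap alone was common: 26% of all genes had every brown control array below every white control array, as 7 of the 10 members did.

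Keratins 8 and 18 pair to form the intermediate filaments of simple epithelia, and keratin 19 is a small type I keratin of ducts and mesothelium. Krt8 read 5.05, 2.57, 2.56 and 2.47 in brown knockouts, against 3.91, 5.12, 5.06 and 2.45 in brown controls. In white fat Krt8 read 1.10, -1.76, -1.76 and -1.88 in knockouts, against 1.70, 0.15, 0.02 and 1.51 in controls. The second Krt8 probe gave a brown minus white difference of 2.59 in controls, where the brighter probe gave 2.97. Krt18 read 5.72, 3.43, 3.34 and 3.38 in brown knockouts, against 4.62, 5.66, 5.61 and 3.46 in brown controls. In white fat Krt18 read 1.79, -1.46, -1.52 and -1.58 in knockouts, against 1.87, 0.56, 0.50 and 1.79 in controls. Both genes were higher on every brown array than on every white array of the same genotype, as 22.2% of all genes were in controls, yet neither passed the test (3.39 ± 1.17, adjusted p 0.149, for Krt18; 2.97 ± 1.20, adjusted p 0.201, for Krt8; SE, limma). Krt19 read 4.50, 1.92, 1.94 and 1.85 in brown knockouts, against 2.78, 3.99, 4.07 and 1.64 in brown controls. In white fat Krt19 read 1.82, -1.79, -1.76 and -1.74 in knockouts, against 2.63, 1.08, 1.04 and 2.53 in controls, where the tissues overlapped (0.99 ± 1.29, adjusted p 0.662).

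The keratins thus did not follow the other 7 members from tissue to tissue. Across the 9 samples the 7 other members correlated with each other at r = 0.919 to 0.997 over their 21 pairs, and the keratins with each other at 0.917 to 0.996 over 3 pairs. The 21 pairs of a keratin with another member had r between -0.701 and -0.145. These correlations describe 9 samples of 2 tissues that share the same scaling, and carry no test.

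The sizes depended on how background was treated. With normexp correction and an offset of 50, which raises dim signals, Upk3b differed by -4.59 between brown and white control fat, Wt1 by -3.28, Upk1b by -2.90, Crb2 by -2.23, Msln by -4.82 and Nkain4 by -4.60. The values of Wt1 and Upk1b are smaller than their bounds above. All 7 non-keratin members stayed lower in brown fat, but Upk1b and Crb2 no longer passed (adjusted p 0.0909 and 0.115, limma), so 4 of 10 were called lower, beside 0.53% of all genes.

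**Figure D2:**
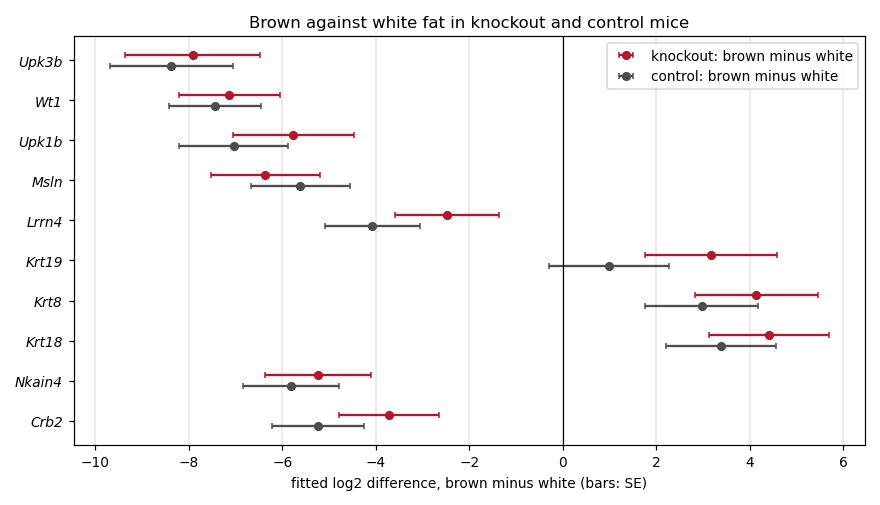
Fitted log2 difference, brown minus white fat, of each member in knockout mice (red) and in control mice (grey), with standard errors as bars. The 7 members other than keratins lay between -8.37 and -4.07 in controls and the keratins between 0.99 and 3.39. Wt1 and Upk1b in both genotypes and Upk3b in knockouts were not well above background in brown fat. Upk3b in controls was well above it on 1 of 4 arrays, so the fitted values of these genes are not measured sizes. Crb2 was well above background on 2 of 4 brown control and 3 of 4 brown knockout arrays, so its values are not fully measured sizes.

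Epithelial genes outside the member list were also higher in brown fat. All 9 tested genes of the general epithelium list had higher means in brown than in white control fat, and Epcam (5.36), Krt5 (5.92) and Krt14 (3.22) passed the test, with adjusted p of 0.0411, 9.72e-04 and 0.00414. Epcam is an adhesion molecule of simple epithelia and Krt5 and Krt14 are basal keratins of stratified epithelia. The summed scaled signal of the 9 genes was 16.2 and 2.66 in the brown knockout samples and 5.65, 11.9 and 7.80 in the brown control samples, against 0.48 to 0.63 in white fat. The 2 samples with the highest epithelial signal, knockout array 1 and control arrays 2 and 3, also had the highest keratin medians. These medians were 5.05 and 2.53 in the knockout samples on array 1 and on arrays 2, 3 and 4, and 3.91, 5.09 and 2.45 in the control samples on array 1, on arrays 2 and 3, and on array 4. Epcam was well above background on 2 of the 4 white control arrays, so its 5.36 is not a fully measured size. Upk2, another bladder uroplakin, was not well above background on any white array and was at least 8.004-fold higher in brown than in white control fat (adjusted p 0.0335), while Upk1a differed by 0.05. Cuzd1, listed here with genes of epididymis and male ducts, was not well above background on any white array either. It was at least 9.74-fold higher in brown control fat (adjusted p 0.00212, limma). Of the 6 genes of that list only 2 were tested, and the other, Rnase10, was not called (0.76, adjusted p 0.159). The part of epithelial or muscle tissue in the brown samples' keratin levels was not tested.

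A second list held 15 further genes used as mesothelial markers, of which 13 were tested. In brown against white control fat 12 had lower means and 1, Krt7, a higher one (1.05), and 6 passed the test as lower: Tcf21 (-6.13), Aldh1a2 (-4.52), Gpm6a (-4.27), Slpi (-4.17), Gata6 (-1.74) and C3 (-1.46). Tcf21 was well above background on only 1 of the 4 brown control arrays, so its value is not a measured size. Tcf21 and Gata6 are transcription factors of visceral mesoderm, and Aldh1a2 makes retinoic acid. The median difference of the 13 was -3.68. Aldh1a2 also passed in knockouts (-4.33, adjusted p 0.00144).

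In knockout mice the same tissue comparison gave 1 of 10 members called lower (Wt1) and 0 higher, where 0.22% of genes were called lower and 1.32% higher. The median was -4.48, or -3.83 with the 3 members below background in brown fat set at their bounds, and all 7 non-keratin members had every brown array below every white array, as 13.3% of all genes did. The 3 keratins had every brown array above every white array, as 13.1% of genes did. Msln differed by -6.36 ± 1.16 (SE; adjusted p 0.0536), Nkain4 by -5.23 (adjusted p 0.0889) and Krt18 by 4.42 (adjusted p 0.187), all from limma. Upk3b and Upk1b were not well above background in brown knockouts and were at least 52.5-fold and 15.3-fold lower there (adjusted p 0.0536 and 0.0957). Same-numbered knockout arrays of the 2 tissues deviated together, and a fit with these samples paired by number was added after seeing this. It rests on 2 pairs, and the labels do not link a number to 1 mouse. With this pairing 6 members were called (adjusted p 0.00935 to 0.0384, limma). Msln, Nkain4, Upk1b, Upk3b and Wt1 were lower and Krt18 was higher, beside 1.05% of genes called lower and 2.99% higher. In controls that fit also called Lrrn4 as lower (adjusted p 0.0183, limma) and Krt18 as higher (adjusted p 0.031), beside 4.15% and 8.07% of genes. It takes the gap between the knockout samples, arrays 2, 3 and 4 minus array 1, as equal in both tissues. In white and brown fat this gap was -4.39 and -0.38 for Upk3b and -3.34 and -0.16 for Wt1. For Crb2 it was -3.37 and 0.996, and for Krt18 -3.30 and -2.33. The difference between the knockout effects of the tissues passed for 0 of 10 members and 0% of all genes, with member estimates of -0.74 to 2.18 and no unadjusted p below 0.290.

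The tissue calls in controls rested on few samples. Without either white control sample 0 members were called, without the brown control sample of low Ucp1 1 was (Wt1), and without either other brown control sample 2 were (Upk3b and Wt1). Calls fell over all 15469 genes too. Against 174 genes called lower with all samples, 35 were without the brown control sample of low Ucp1. Without brown control array 1 there were 37, and without array 4 there were 67. Without a white control sample 1 was left in that group, so those calls rest on the spread of the other groups. Far fewer genes of the whole array were called lower there too. The differences themselves kept their sign in all these fits for the 7 non-keratin members. In knockouts 0 were called between tissues without either brown knockout sample, either white control sample or the brown control sample of low Ucp1, 3 without white knockout array 1 (Msln, Nkain4 and Wt1; 0.381% of genes were called lower), and all 7 non-keratin members without white knockout arrays 2, 3 and 4, when 4.47% of all genes were called lower.

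In white fat all 10 members had lower means in knockouts than in controls, between -2.24 for Upk3b and -1.05 for Krt18, with a median of -1.60 against -0.037 over all genes. None passed the test: 0 of 10 members and 0% of 15469 genes were called in either direction, the smallest adjusted p among the members was 0.555 (Upk1b; unadjusted 0.125, limma), and 0 members had an unadjusted p under 0.05. The 2 white knockout samples lay further apart than the group means. The sample on array 1 had a median of 0.20 above the control mean over the members, with 2 of 10 below it, and its members lay between -0.14 and 0.61. The sample on arrays 2, 3 and 4 had a median of -3.56, with all 10 below the control mean, between -4.44 for Upk3b and -2.65 for Krt8.

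All 10 members were at least 4-fold lower than the control mean in the sample on arrays 2, 3 and 4, where 4.54% of all genes were, and 0 of 10 were in the sample on array 1, where 0.653% were. Ranked from the lowest of 15469 genes in the sample on arrays 2, 3 and 4, Upk3b stood at place 8, Upk1b at 11, Lrrn4 at 26, Msln at 28, Krt19 at 30, Nkain4 at 32, Wt1 at 66, Crb2 at 85, Krt18 at 175 and Krt8 at 194. In this sample the keratins were low along with the other members. For no member did all knockout arrays lie below all control arrays, since array 1 lay above the lowest control array for each of them, while 18.5% of all genes had such a separation downwards. The gap between the knockout samples, arrays 2, 3 and 4 minus array 1, was widest for Upk3b (-4.39) and narrowest for Krt8 (-2.90).

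The white control samples also differed in one direction. For all 10 members the sample on arrays 1 and 4 was above that on arrays 2 and 3, as for 59.4% of all genes, and 9 of 10 differed by at least 1.5-fold, as 6.15% of genes did. The gap ran from 0.46 for Wt1 to 1.52 for Krt19. Each gap was smaller than that between the 2 knockout samples for the same gene.

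**Figure D3:**
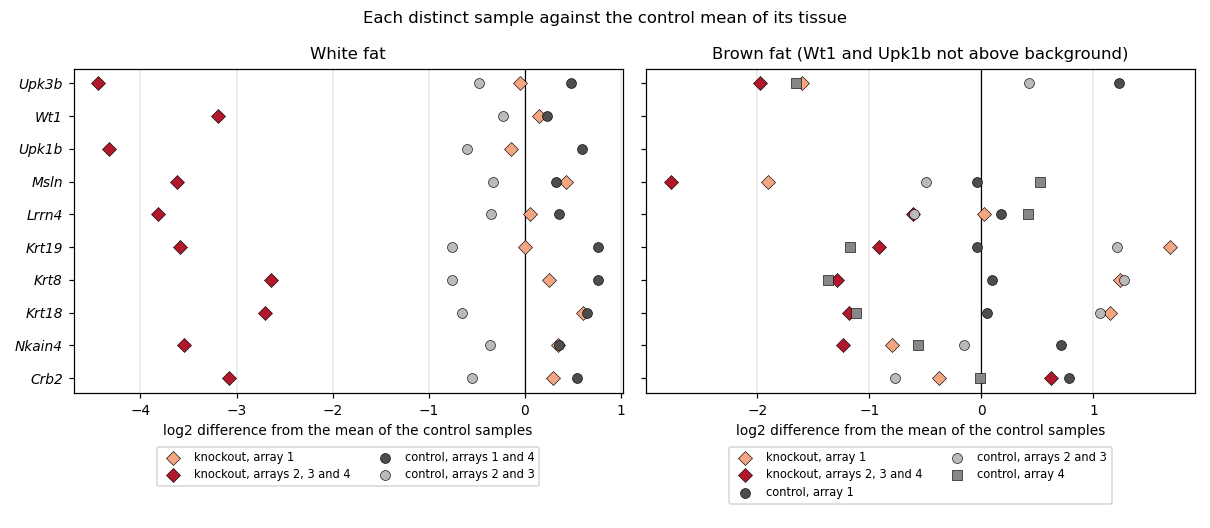
Log2 difference of each distinct sample from the mean of the control samples of its tissue, for each member, in white fat (left) and brown fat (right). In white fat the knockout sample on arrays 2, 3 and 4 lay between -4.44 and -2.65 for all 10 members while that on array 1 lay between -0.14 and 0.61; in brown fat Wt1 and Upk1b are left out because no brown array was well above background, and Upk3b was above it on 1 control array.

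Markers of other cells also differed between these white samples. All 8 lymphocyte markers were tested, all above background on every array, and their summed scaled signal was 4.85 in the knockout sample on array 1 and 82.0 in that on arrays 2, 3 and 4, against 2.57 in the control sample on arrays 1 and 4 and 16.05 in that on arrays 2 and 3. In both white groups the sample with more lymphocyte signal had the lower member levels. The summed signal of the 7 adipocyte markers was 1683 and 944 in these knockout samples, against 1844 and 1619 in the controls. The part of lymphocyte RNA or of the share of adipocytes in the member levels was not tested.

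The other mesothelial genes did not all follow. In white knockouts against controls 12 of the 13 had lower means and 0 passed, with the smallest unadjusted p for Gata6 (-0.81, p 0.0153) and Pdpn (-1.14, p 0.0533). In the knockout sample on arrays 2, 3 and 4, Bnc1 was not well above background, at -6.69, against -1.57 and -2.10 in the control samples, and Tcf21 was at -4.35, against -0.89 and -1.28. Aldh1a2 was at 2.23 there, against 2.29 and 2.38 in the controls. Bnc1 encodes a zinc finger protein of mesothelium and epidermis, and it was also among the genes with the most similar profile.

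Leaving out the sample on array 1, 4 members passed as lower in white knockouts (Lrrn4, Msln, Nkain4 and Upk1b), beside 484 genes called higher and 1174 lower in all, with the lone knockout sample assumed to vary like the other groups. Leaving out the sample on arrays 2, 3 and 4 instead, 0 passed and the median was 0.20. With the 16 arrays counted as separate samples, 8 members passed as lower, beside 2939 genes called higher and 3969 lower. On the 1 slide that held white arrays of both genotypes, 2 of each, the median was -1.60 with all 10 lower, and these knockout arrays were array 1 and array 2.

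In brown fat 0 of 10 members and 0% of genes were called between knockouts and controls (limma; smallest adjusted p among the members 0.619, for Msln, with an unadjusted 0.063, and 0 members with an unadjusted p under 0.05). Of the 8 members above background in at least 1 group, 6 had lower means and 2 higher, with a median of -0.16 against -0.12 over all genes. Msln averaged -4.75 ± 0.61 (SD, n = 2) in knockouts and -2.41 ± 0.51 (SD, n = 3) in controls, a difference of -2.34 ± 1.06 (SE). Msln and Nkain4 (-1.01 ± 1.03, SE) were the measured members whose knockout arrays all lay below the control arrays, a separation that 16.6% of all genes showed; Wt1 also separated, at signals not well above background. The second Nkain4 probe went the other way, with a knockout minus control difference of 0.30. The keratins differed by -0.02 (Krt8 and Krt18) and 0.39 (Krt19).

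The knockout samples of brown fat were apart in the keratins and close in the other members. The sample on arrays 2, 3 and 4 differed from that on array 1 by -2.60 to -2.33 for the 3 keratins. For the other 7 this gap ran from -0.87 for Msln to 0.996 for Crb2. Lymphocyte markers were at summed signals of 13.8 and 57.8 in the knockout samples and 14.3, 1.27 and 0.657 in the controls, and their part was not tested. With 16 separate arrays, which counts repeat arrays more than once, Msln alone of the members passed in brown fat (-2.43). Beside it 1960 genes were called higher and 2760 lower. Within the 1 slide that held brown arrays of both genotypes, the median was -0.080 with 5 of 10 lower, members below background included, and Msln was at -2.11.

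Of all other genes tested, 8 are named as those whose profile was most like the members' mean, measured by Pearson's r with the mean of the 10 centred profiles over the 9 distinct samples. They were Rpp25 (0.991), Tmem151a (0.990), Chp2 (0.985), Prokr1 (0.983), Bnc1 (0.983), Gja5 (0.982), 2310022B05Rik (0.982) and Eln (0.981). Rpp25 was at -5.34 in the white knockout sample on arrays 2, 3 and 4 and -2.10 in that on array 1, against -1.95 and -2.53 in the white controls, and it lay between -6.15 and -4.79 in brown fat; on those 3 knockout arrays and on some brown arrays it was not well above background. Tmem151a was at -1.64 and 1.21 in the same knockout samples, against 1.52 and 0.65 in the controls. Gja5 encodes a gap junction protein of arterial endothelium and Eln the elastic fibre protein elastin. Eln lay at -1.12 and 0.46 in the knockout samples, against 0.17 and 0.07 in the controls.

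**Figure D4:**
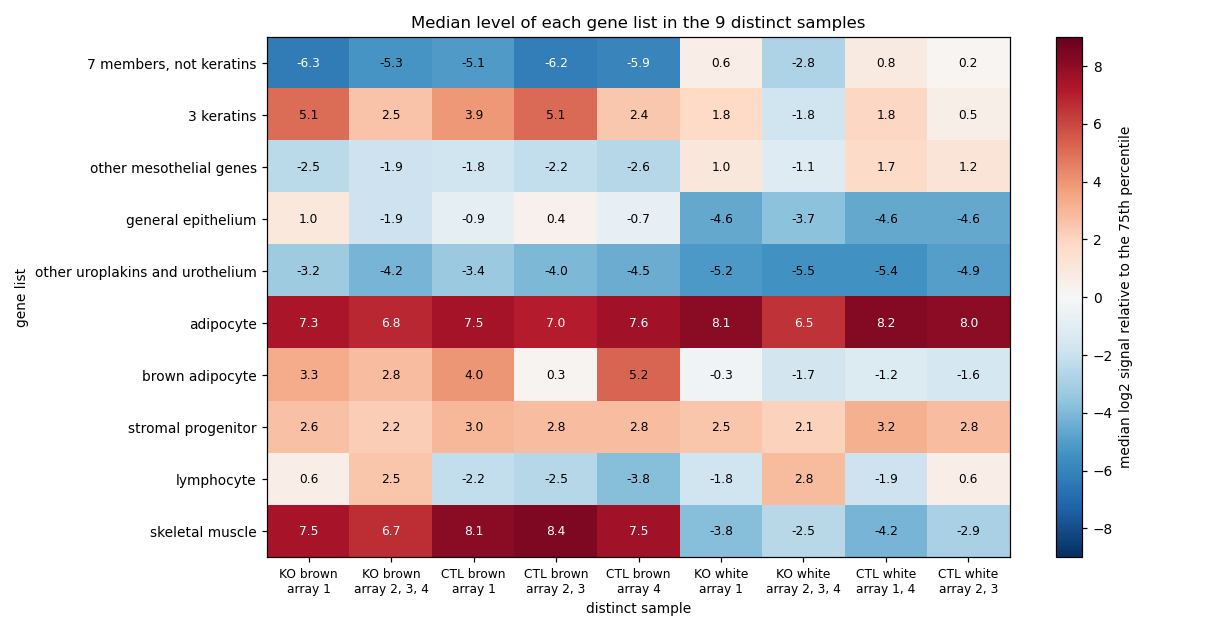
Median log2 signal, relative to the array's 75th percentile, of each gene list in the 9 distinct samples (KO, knockout; CTL, control); rows are lists and columns are samples. The 7 members other than keratins were lower in the 5 brown samples than in white fat, the keratins and general epithelium were higher there, and the white knockout sample on arrays 2, 3 and 4 was low in both member rows and high in lymphocyte markers.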

How the data were processed

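Total RNA of 16 adipose samples was labelled with Cy3 and hybridised to Agilent arrays. Per the file headers, the authors used Agilent Feature Extraction 12.0.0.7, and each deposited intensity is linear, background-subtracted and not scaled between arrays. Their deposited value table gives the same intensity per probe, equal to the mean over spots for all 41174 probes within a relative tolerance of 1e-05, and served as an alternative. Its columns had medians between 5.86 and 6.65 on the log2 scale.

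Outlier spots were dropped, replicate spots averaged, and log2 intensity minus each array's 75th percentile was used. RefSeq accessions named 28223 probes through a GRCm38.p6 table. The array design names another build, so no coordinates are given beyond those of the GRCm38.p6 promoter windows. Probes had to be above background throughout 1 group or more, and the brightest such probe stood for its gene. Arrays of a group were averaged where their differences, divided by the scanner's error, had a scaled median absolute deviation below 1 (9836 bright probes). Repeat pairs had ratios of 0.376 to 0.659, other pairs 1.10 or more.

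Groups were compared with limma 3.58.1 (R 4.3.3), with 4 group means, 5 residual degrees of freedom and Benjamini-Hochberg adjustment over 15469 genes per contrast, at a threshold of 0.05. The fit was tested on simulated data. Array numbers paired only the knockout samples of the tissues (r over 0.1 for every number; arrays 2, 3 and 4 being 1 sample, these are 2 pairs, r = 0.57 across genes), and that blocked fit is given beside the results it changes. Where no array of a group measured a gene, its fold is a bound, written "at least", with the dim side set on each array to whichever was higher, the gene's signal or the dimmest signal still above background. Members and marker lists were chosen with earlier results of these data known. Named are all members, Nr3c1, list genes that passed and the 8 most similar profiles, with the skeletal muscle markers given as a set. Where no gene of a list passed, the 2 of smallest p were to be named. This was done for the other mesothelial genes and the adipocyte markers in white knockouts. Lymphocyte, stromal progenitor and thymic epithelium genes are given by list only. Bnc1, Tcf21 and Aldh1a2 in white fat, Krt7, Upk1a, Ucp1, Acta1, Adipoq, Fabp4, Cfd and Cidec were added after their values were seen. Rnase10 also falls outside the naming rule. Summed scaled signals add up 2 to the power of each log2 value. Alternatives were 16 separate arrays, slide as a block, quantile and normexp scaling (normexp on median spot signals, offset 50), the authors' values, probe rules and leaving samples out. The number of arrays limits the precision.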

Additional observations from a re-analysis of the deposited data

Results flagged for a closer look

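On the 4 arrays labelled white knockout, array 1 lay far from the other 3 for all 10 members: the gap to the nearest array as a share of the whole range was 0.977 for Upk3b, 0.95 for Wt1, 0.954 for Upk1b, 0.965 for Msln, 0.97 for Lrrn4, 0.985 for Krt19, 0.96 for Krt8, 0.963 for Krt18, 0.934 for Nkain4 and 0.951 for Crb2. On the brown knockout arrays the same measure singled out array 1 for Lrrn4 (0.851), Krt19 (0.967), Krt8 (0.96) and Krt18 (0.962). The rate of about 1 in 20 groups singled out by chance holds for 4 independent arrays, so it does not apply here. In both groups arrays 2, 3 and 4 differed by less than the scanner's error and count as 1 sample, so each of these gaps is one between 2 samples.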

How the results depend on the processing

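Same-numbered knockout and control arrays did not deviate together (r of -0.52 to 0.41 in white and -0.54 to -0.041 in brown fat), nor did those of the control tissues (-0.13 to 0.18), but knockout arrays of the 2 tissues did (0.29 to 0.57). With knockout samples paired by number over the tissues, a replicate block chosen after seeing the data, 6 members were called between knockout tissues, and the other comparisons kept 0 calls except control tissues, with 8. With 16 separate arrays, members called were 8 in white knockouts, 1 in brown knockouts, 9 between control tissues and 9 between knockout tissues, and with the replicate block they were 10, 1, 9 and 9; repeat arrays then count more than once. Over all genes, higher and lower calls with 16 arrays were 2939 and 3969 in white knockouts and 1960 and 2760 in brown, against 0 with 9 samples. Between control tissues they were 3053 and 3021, against 607 and 174 with 9 samples. Between knockout tissues they were 2011 and 1954, against 204 and 34. With the replicate block these calls were, in the same order, 3058 and 4045, 2105 and 2855, 3021 and 3145, and 1962 and 1928. Between knockout tissues 3 members were called with slide as a block, beside 244 genes called higher and 79 lower. That fit links the tissues of a genotype only through arrays of the other genotype, since no slide held both. With the authors' unscaled values 3 were called, beside 324 genes higher and 25 lower. With normexp 0 were called, beside 191 genes higher and 20 lower. Without the 3-array knockout samples, which leaves 1 knockout sample in each tissue, the member median was -6.43. Normexp called 4 members between control tissues and gave member medians of -2.79 there and -2.01 between knockout tissues, against -5.42 and -4.48. With the white control arrays counted as 1 sample, an alternative chosen after seeing the data, that group had no spread of its own. The member calls between tissues were then lost, and fewer genes were called lower over the whole array. The member medians stayed at -5.42 between control tissues and -4.48 between knockout tissues. The difference of knockout effects called 0 members in all settings. Leaving out 1 sample in turn, counts ran from 0 to 4 in white knockouts, stayed at 0 in brown, and ran from 0 to 7 between tissues in controls and in knockouts.

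When white knockout arrays 2, 3 and 4 were left out, alone or with its brown counterpart, 8 members turned sign in white fat: Crb2 0.29, Krt18 0.61, Krt19 0.00038, Krt8 0.25, Lrrn4 0.052, Msln 0.43, Nkain4 0.35 and Wt1 0.15. Without array 1 they lay at -3.08 (Crb2), -2.70 (Krt18), -3.58 (Krt19), -2.65 (Krt8), -3.81 (Lrrn4), -3.62 (Msln), -3.54 (Nkain4) and -3.19 (Wt1). In brown knockouts against controls, small differences also turned. Krt19 was -0.57 with 16 arrays, with or without the replicate block. Krt8 and Krt18 were both 0.042 with slide as a block, 0.14 and 0.19 with quantile scaling, 0.10 and 0.14 with normexp, 0.41 each with the authors' values, and 1.24 and 1.15 without the 3-array samples; with probes averaged Krt8 was 0.0016. Crb2 was -0.35 with slide as a block, -0.62 with normexp and -0.38 without the 3-array samples, and Lrrn4 was 0.14 with the authors' values and 0.026 without those samples. Leaving out 1 sample gave -0.38 to 0.62 for Crb2, -1.18 to 1.15 for Krt18, -0.91 to 1.69 for Krt19, -1.28 to 1.24 for Krt8 and -0.61 to 0.026 for Lrrn4. The authors' values shifted the median of all genes by -0.23 in white and 0.31 in brown knockouts, and by -0.43 and 0.25 between tissues in controls and knockouts. The cause of these turns was not tested. Probes not above background limit Wt1, Upk1b, Upk3b and Crb2 in brown fat.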

Other observations

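Other lists were measured beside the members. Of the 4 tested thymic epithelium genes, 3 had higher means in white knockouts than in white controls, with 0 called and a median of 0.49. The 7 stromal progenitor markers had a median of -0.61 in white knockouts against controls and of -0.50 in brown, with 0 called in either. All 7 adipocyte markers had lower means in knockouts in both tissues, with 0 called and medians of -0.79 in white and -0.35 in brown fat. On white knockout array 1, Adipoq, Fabp4 and Cfd lay within the control range and Cidec above it. In both white knockout samples Retn (4.84 and 3.88, controls 6.97 and 6.54) and Lep (0.50 and -0.70, controls 2.37 and 1.69) were low. Their unadjusted p were 4.2e-04 and 0.0016, with adjusted p of 0.252 and 0.298 (limma). The 8 lymphocyte markers had higher means in knockouts in both tissues, with medians of 1.14 in white and 4.19 in brown fat, and 0 were called. In white fat their median level was -1.80 in the knockout sample on array 1 and 2.84 in that on arrays 2, 3 and 4. The white controls were at -1.87 and 0.59, so the sample on array 1 lay within their range. Of the 6 brown adipocyte markers, Cox7a1, a subunit of cytochrome oxidase also made in muscle, was called higher in brown than in white control fat (5.98), and all 6 skeletal muscle markers were, with a median of 11.6.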
